A study of Mus musculus with 6 samples.

Results

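The contactins and the contactin-associated proteins (Cntnap, also called Caspr) are axonal adhesion molecules, and 10 of their genes are described here across embryonic brains with and without a deletion in Tdp2. The genes are Cntn1 to Cntn6, Cntnap2, Cntnap4, Cntnap5a and Cntnap5b. They were taken by name as array rows annotated with that gene alone, which gave 1 row each, 10 of the 28856 rows and 10 of 19938 genes with such a row. The family has 13 genes on the array, and Cntnap1, Cntnap3 and Cntnap5c, which the list leaves out, are given beside them. The 10 were chosen from the family with their genotype differences on these same arrays known, so those differences are given as a description of the genes and support nothing further.

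RNA came from the whole brain of each of 6 mouse embryos, at embryonic day 16.5, and each was read on its own Affymetrix Mouse Gene 1.0 ST array. In 3 embryos Tdp2 was wild type. The other 3 carried Tdp2Δ1-3, in which exons 1 to 3 are deleted from the gene of an enzyme that frees DNA ends from trapped topoisomerase II. No treatment was given, and the labels used here name no strain, sex or litter. The deposited values are log2 values with each row's median over the 6 arrays set to 0, so a value says how an array differs from the middle array and not how abundant a transcript is. Levels of different genes, and the presence of brain markers as such, cannot be compared on this scale. Where the genotypes do not overlap, this centring makes their closest values equal in size and opposite in sign. Tdp2 itself stood at 0.90, 1.10 and 1.34 in the wild types and at -1.05, -0.90 and -0.94 in the mutants, and probes outside the deleted exons may be part of that row. The array medians over all rows lay within -0.011 to 0.014. Because the tissue was bulk, fewer cells of a type and less RNA per cell cannot be told apart in any value below.

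Contactins are immunoglobulin-superfamily proteins held to the outer membrane leaflet by a lipid anchor. Cntnap proteins resemble neurexins, span the membrane and carry a cytoplasmic tail that binds the cytoskeleton. On the axon the pairs act together: Cntn1 with Cntnap1 forms the axonal side of the junction that glia make beside nodes of Ranvier, and Cntn2 with Cntnap2 gathers Kv1 potassium channels next to it. Before myelin forms, which is the stage sampled here, contactins are known for roles in axon growth, fasciculation and the choice of synaptic partners.

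The largest difference of the family was in Cntn1, the contactin of the paranodal junction and a receptor for tenascin-R. Its centred log2 values were 0.46, 0.40 and 0.26 in wild-type replicates 1 to 3 and -0.26, -0.48 and -0.60 in mutant replicates 1 to 3. Every mutant brain lay below every wild-type brain, and the spread was wider among the mutants (SD 0.17) than among the wild types (SD 0.10). The difference, mutant minus wild type, was -0.82 ± 0.09 (limma's moderated SE, n = 3 per genotype), a level 1.77-fold lower. Only 0.0812% of the 23410 rows tested had a more negative difference.

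Cntn6, also called NB-3, followed. It stood at 0.29, 0.21 and 0.31 in the wild types and at -0.21, -0.37 and -0.28 in the mutants, again with no overlap. The difference was -0.56 ± 0.05 (SE), 1.47-fold lower, and its SDs of 0.05 and 0.08 were smaller than those of Cntn1. The gap of 0.27 between the differences of Cntn1 and Cntn6 was larger than the sum of their SEs, 0.14, but was not tested.

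Cntn4 and Cntn5, both contactins of developing sensory pathways, differed by near-equal amounts. Cntn4 was at 0.18, 0.29 and 0.11 in the wild types and at -0.11, -0.26 and -0.26 in the mutants, a difference of -0.40 ± 0.06 (SE). Cntn5 was at 0.22, 0.24 and 0.11 against -0.27, -0.11 and -0.29, a difference of -0.42 ± 0.06 (SE). In neither gene did the genotypes overlap, and the levels were 1.32-fold and 1.34-fold lower.

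The paralogs Cntnap5a and Cntnap5b both lie on chromosome 1 and were lower to a like degree. Cntnap5a was at 0.35, 0.28 and 0.15 in the wild types and at -0.15, -0.17 and -0.32 in the mutants, a difference of -0.48 ± 0.07 (SE). Cntnap5b was at 0.27, 0.35 and 0.12 against -0.19, -0.12 and -0.18, a difference of -0.41 ± 0.06 (SE). The groups did not overlap in either gene. The genes are similar in sequence, and the probe sequences were not used here, so how far each row reads the other gene is uncertain.

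Cntn3 and Cntnap4 had smaller negative differences that did not pass the limma threshold, although both passed with array weights and Cntn3 also when mutant replicate 1 was left out. Cntn3, or BIG-1, was at 0.02, 0.10 and 0.09 in the wild types and at -0.02, -0.21 and -0.24 in the mutants, with a difference of -0.23 ± 0.07 (SE). Cntnap4, known for its role at synapses of interneurons, was at 0.27, 0.12 and 0.03 against -0.19, -0.03 and -0.04, with a difference of -0.23 ± 0.07 (SE). In both genes the groups did not overlap but nearly met, with the closest arrays of the genotypes at 0.02 and -0.02 in Cntn3 and at 0.03 and -0.03 in Cntnap4.

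Cntn2 and Cntnap2, the pair that holds Kv1 channels at the juxtaparanode, were the 2 genes whose genotypes overlapped. Cntn2, or TAG-1, was at -0.04, 0.04 and -0.05 in the wild types and at -0.04, 0.23 and 0.13 in the mutants. It was the only one of the 10 with a positive difference, 0.12 ± 0.07 (SE). Cntnap2 was at 0.06, 0.02 and -0.02 against -0.03, -0.08 and 0.02, and its difference of -0.05 ± 0.05 (SE) was about as large as its error.

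**Figure D1:**
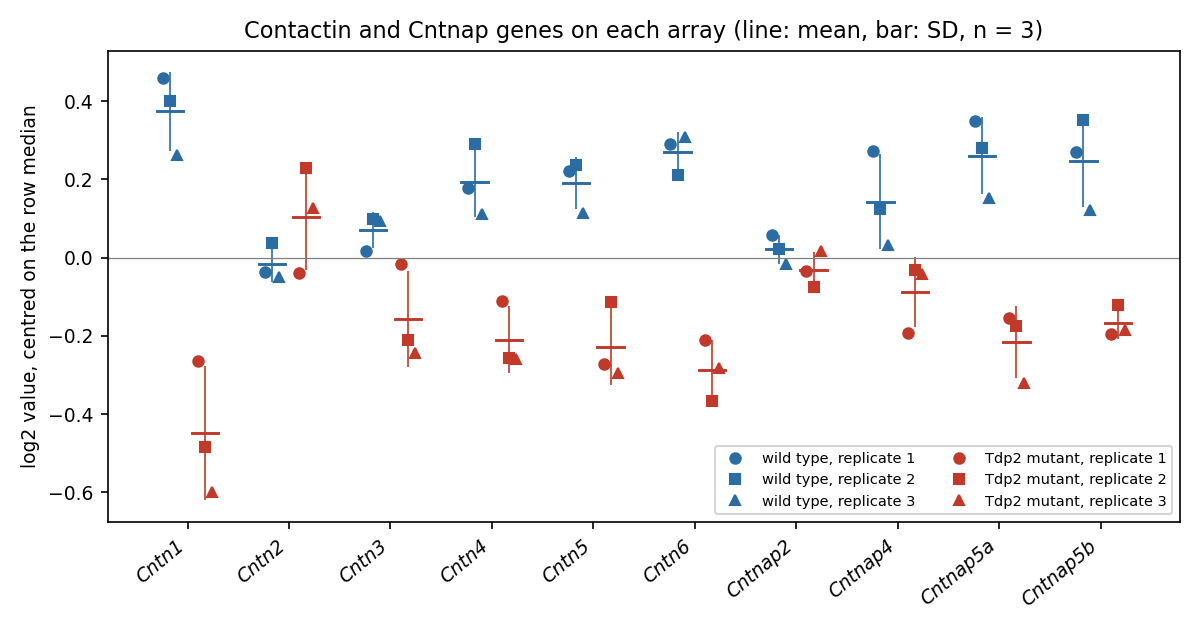
Centred log2 value (vertical axis) of each of the 10 genes on each array, with blue for wild type, red for the Tdp2 mutant and a marker shape for each replicate number; lines are means and bars SDs of 3 arrays. Cntn1 is split from 0.26 and above to -0.26 and below, a symmetry set by the centring, while the colours mix in Cntn2 and Cntnap2.

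Ranked by difference, the order ran from Cntn1 through Cntn6, Cntnap5a, Cntn5, Cntnap5b, Cntn4, Cntnap4, Cntn3 and Cntnap2 to Cntn2. Several neighbours in that order lay closer than the sum of their SEs. That sum is a guide and not a test, since the genes share the same arrays. The steps from Cntn6 to Cntnap5a, Cntn5, Cntnap5b and Cntn4 were 0.08, 0.06, 0.0043 and 0.01, each below the sum of the SEs of the genes on either side. The step from Cntn4 to Cntnap4 was 0.17 against a sum of SEs of 0.14, and that from Cntnap4 to Cntn3 0.0043 against 0.14. From Cntn3 to Cntnap2 it was 0.17 against 0.11, and from Cntnap2 to Cntn2 0.17 against 0.12. The contactins (-0.82 to 0.12) and the listed Cntnap genes (-0.48 to -0.05) overlapped in their range, with medians of -0.41 and -0.32.

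Genotypes were compared by limma's moderated test over all 23410 rows, with Benjamini-Hochberg adjustment and a limit of 0.05. Of the 10 genes, 6 were lower in the mutants and 0 higher. The 6 were Cntn1, Cntn4, Cntn5, Cntn6, Cntnap5a and Cntnap5b, and by that rule 4.13% of all tested rows were lower and 2.34% higher. At a fold of at least 1.5 as well, the limit in the series text, 1 gene (Cntn1) was lower, against 0.453% of rows. In 8 of the 10 genes every mutant was below every wild type, as in 12.6% of rows. At an unadjusted p under 0.05 in limma, 8 of the 10 were lower and 0 higher, as were 2770 and 2345 of the 23410 rows. Nothing is read from these counts, since the genes were listed with the same contrast known. The median difference was -0.41 over the 10 genes and 0.01 over all tested rows. With wild-type replicate 2 left out, 2 of the 10 were called, Cntn1 and Cntn6 (0.927% of rows lower). With mutant replicate 2 left out, 3 were called, Cntn1, Cntn5 and Cntn6 (0.483% of rows lower).

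The arrays did not all contribute alike. Over the 6 called genes, wild-type replicate 3 had the lowest wild-type value in 5 and mutant replicate 1 the highest mutant value in 4. Averaged over these 6 genes the wild types were at 0.29, 0.30 and 0.18 and the mutants at -0.20, -0.25 and -0.32. Wild-type replicate 3 and mutant replicate 1 were thus the arrays nearest to the other genotype.

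The Cntnap genes outside the list were tested as well, although they may have been left off it with their values known. Cntnap1, the partner of Cntn1 at the paranode, was at 0.35, 0.22 and 0.02 in the wild types and at -0.02, -0.13 and -0.51 in the mutants. Its difference of -0.42 ± 0.13 (SE) was as large as that of Cntn5, but the error was the widest of the family and it did not pass (limma adjusted p = 0.10). It passed when mutant replicate 1 was left out, with array weights, and with the replicate number as a block. Cntnap3 has 6 rows on the array, of which 3 passed as lower and 3 did not. The passing rows fell by 0.36, 0.41 and 0.38 (limma adjusted p = 0.031, 0.022 and 0.025), and the others were at -0.23, -0.0036 and -0.05 (limma adjusted p = 0.16, 0.99 and 0.75). Of the 2 rows of Cntnap5c, 1 fell by 0.35 (limma adjusted p = 0.016) and 1 was at -0.14 (limma adjusted p = 0.21). Rows of Cntnap3 and Cntnap5c thus disagree on the size of the difference, and which transcript parts they read was not examined. The row that stood for Cntnap3 in the counts below, the first of those passing, lost its call when replicate 2 of either genotype or mutant replicate 3 was left out.

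**Figure D2:**
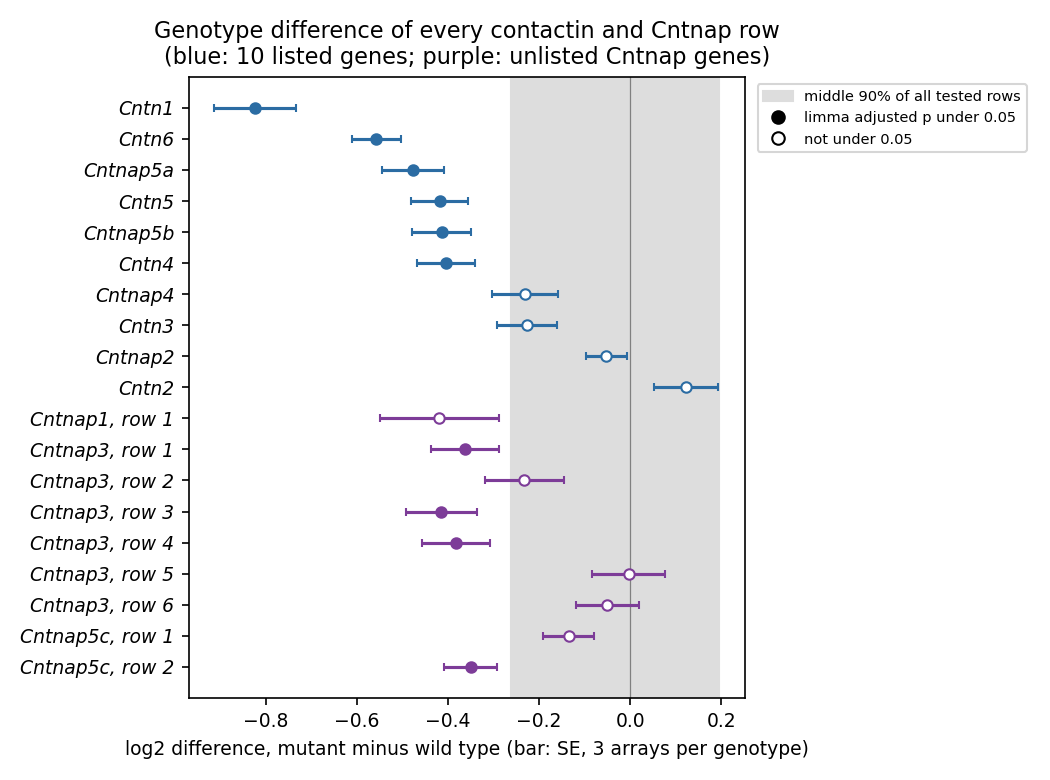
Log2 difference, mutant minus wild type (horizontal axis), with its SE, for the 10 listed genes in blue and the 9 rows of Cntnap1, Cntnap3 and Cntnap5c in purple; filled points had a limma adjusted p under 0.05, and the grey band runs from the 5th to the 95th percentile of all tested rows, -0.26 to 0.20. All 6 filled blue points lie left of the band, and Cntn2 is the only point right of 0.

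Cntn3, Cntn6 and Cntn4 lie side by side on chromosome 6 with Chl1, the gene of an L1-family adhesion molecule, between the first and second of them (gene order of assembly GRCm38.p6). Chl1 was at 0.06, 0.13 and 0.15 in the wild types and at -0.06, -0.13 and -0.19 in the mutants. It fell by 0.24 ± 0.05 (SE, limma adjusted p = 0.035), a call that was kept when mutant replicate 1 was left out and lost without any of the other 5 arrays. The 3 protein-coding genes before this run, Gxylt2, Ppp4r2 and Pdzrn3, were at -0.12, 0.09 and 0.09 (limma adjusted p = 0.59, 0.79 and 0.46). The 3 after it, Il5ra, Trnt1 and Crbn, were at 0.06, -0.02 and -0.05 (limma adjusted p = 0.49, 0.87 and 0.58). All 4 genes of the run had negative differences, and Cntn3 did not pass. None of the 6 flanking genes passed, and their genotypes overlapped, but Gxylt2, Trnt1 and Crbn had negative differences too. The flanking genes were added after the values were seen, so no boundary is read from them. On chromosome 1, Cntn2 lies next to Nfasc, which encodes the neurofascins and was at -0.02 (limma adjusted p = 0.87). The value of Nfasc turned to 0.0092 with array weights and to 0.03 without mutant replicate 1.

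**Figure D3:**
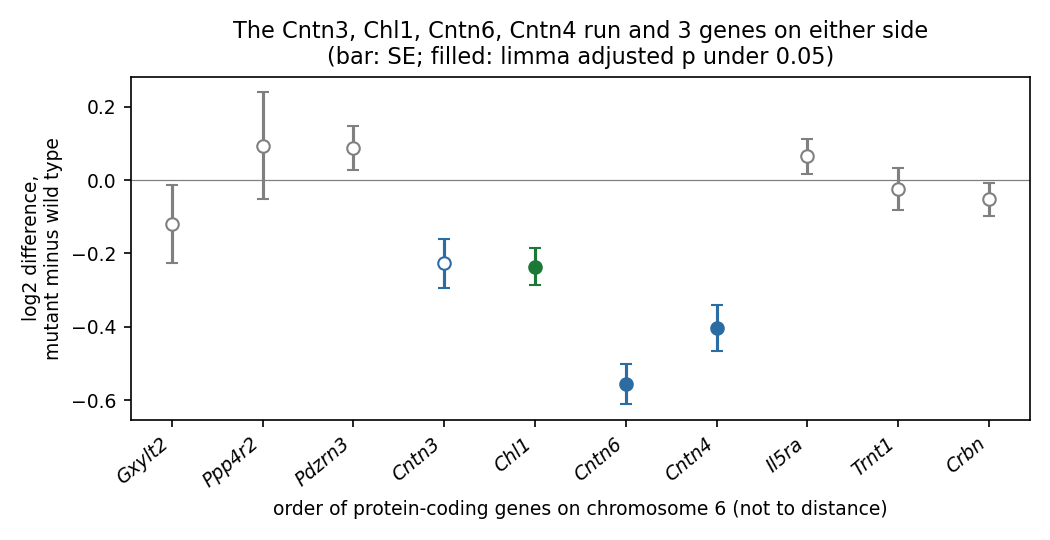
Log2 difference, mutant minus wild type (vertical axis), with its SE, of 10 protein-coding genes in their order along chromosome 6, with contactins in blue, Chl1 in green and flanking genes in grey; filled points had a limma adjusted p under 0.05. The run from Cntn3 to Cntn4 lies between -0.56 and -0.23, and the flanking genes between -0.12 and 0.09.

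The sequences before 3 of the transcription starts are shown to set the 2 contactins with the largest differences beside Cntn2, whose difference was positive and did not pass. Each is 250 bases upstream of a RefSeq start in GRCm38.p6, 5′ to 3′ on the gene's strand, with matches on either strand in capitals to the CCAAT box (CCAAT), the GC box (GGGCGG) and the TATA box (TATAAA). No match overlaps another in them. They lie at chr15:92050915-92051164 (plus strand, the most upstream of 3 Cntn1 starts), chr6:104492794-104493043 (plus strand) and chr1:132542941-132543190 (minus strand).
Cntn1: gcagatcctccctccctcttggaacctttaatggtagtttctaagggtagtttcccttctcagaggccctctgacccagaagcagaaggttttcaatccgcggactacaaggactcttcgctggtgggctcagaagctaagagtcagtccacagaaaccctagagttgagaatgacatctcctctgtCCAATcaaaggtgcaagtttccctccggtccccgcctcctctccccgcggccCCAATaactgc
Cntn6: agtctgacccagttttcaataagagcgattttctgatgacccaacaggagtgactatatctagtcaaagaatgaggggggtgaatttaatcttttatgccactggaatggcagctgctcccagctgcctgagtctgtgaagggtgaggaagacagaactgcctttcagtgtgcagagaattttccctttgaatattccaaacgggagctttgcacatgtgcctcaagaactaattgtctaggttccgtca
Cntn2: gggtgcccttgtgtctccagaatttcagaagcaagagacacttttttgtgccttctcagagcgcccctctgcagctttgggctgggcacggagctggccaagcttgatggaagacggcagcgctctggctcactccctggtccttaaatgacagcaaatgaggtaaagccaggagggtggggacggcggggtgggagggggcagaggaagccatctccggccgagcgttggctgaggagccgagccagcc
The Cntn1 window holds CCAAT at 2 places, and the windows of Cntn6 and Cntn2 hold none of the 3 motifs. RefSeq windows were at hand for 8 of the 10 genes, 13 windows in all. The 2 windows of Cntn5 overlap each other, as do the 2 of Cntn4. The CCAAT box was in 6 of the 13, against 33.8% of all 32851 windows of this length, and both Cntn5 windows count the same site. The GC box was in 3, against 32.7% of all, and the TATA box in 1, against 12.4%. The share of G and C ranged from 26.4% in Cntn3 to 68.4% in a Cntn5 window, around a median of 52.4% over all windows. The windows before the 3 starts shown had 53.6% (Cntn1), 45.2% (Cntn6) and 61.2% (Cntn2). A match is a description of letters and shows no use of a site.

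The listed genes are mostly very long. In the RefSeq table of GRCm38.p6, 9 of the 10 span over 100 kb, and Cntn2 is the exception. Among 2294 genes over 100 kb with 1 row each, 16.5% were lower by the limma threshold and 1.83% higher, and of 17559 shorter genes 2.82% were lower. The median difference was -0.06 for the long genes and 0.02 for the shorter ones. Leaving out replicate 2 of the wild type or of the mutant lowered the share of long genes called lower to 3.92% or 2.35%, and leaving out wild-type replicate 1 or mutant replicate 3 to 8.2% or 7.37%. The share of all rows called lower dropped as well, from 4.13% to 0.927%, 0.483%, 1.95% and 1.7% in these fits.

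Proteins that bind contactins or Cntnap proteins, or that belong to the axonal complexes around them, were taken as a list of 32 measured genes. By limma's adjusted test 13 of the 32 fell, 0 rose and 19 did not pass, with a median difference of -0.23. At an unadjusted p under 0.05 in limma, 25 were lower and 1 higher, against 2770 and 2345 of the 23410 rows. With the 3 unlisted Cntnap genes the adjusted count was 14 of 35 lower, against 4.13% of all rows and 16.5% of the genes over 100 kb. Nothing is read from this count, since the lists were chosen with earlier results of these data known. Leaving out wild-type replicate 2 gave 4 of 35, leaving out mutant replicate 2 gave 3, and leaving out mutant replicate 3 gave 8. In these fits 0.927%, 0.483% and 1.7% of all rows were lower. Tnr and Dlg2 were the 2 that passed with any single array left out.

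Among surface ligands and receptors, 3 of 8 fell, against 4.13% of all rows. Tnr, the gene of tenascin-R, a matrix ligand of Cntn1, was at 0.25, 0.25 and 0.21 in the wild types and at -0.31, -0.21 and -0.22 in the mutants. It fell by 0.49 ± 0.05 (SE, limma adjusted p = 0.0038), with a spread within genotypes far smaller than the gap between them. Tnc, encoding tenascin-C, fell by 0.44 ± 0.06 (SE, limma adjusted p = 0.011). App, the amyloid precursor protein gene, fell by 0.30 ± 0.07 (SE, limma adjusted p = 0.042). Tnc lost its call when replicate 2 of either genotype was left out, and App then too, as well as without wild-type replicate 1 or mutant replicate 3. The receptor phosphatase genes did not pass: Ptprz1, a binding partner of Cntn1, was at -0.17 ± 0.04 (limma adjusted p = 0.061), and Ptprg, which binds Cntn3 to Cntn6, at -0.12 ± 0.05 (limma adjusted p = 0.18). The adhesion receptor gene Adgrl1 was at -0.25 (limma adjusted p = 0.063). It passed as lower with array weights, with the replicate number as a block and without mutant replicate 1. Notch1, a receptor of progenitors that contactins can engage, had the only positive value, 0.30 ± 0.09 (limma adjusted p = 0.098), and passed as higher with array weights.

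Of the 4 L1-family genes, which pair with contactins on axons and growth cones, Chl1 alone passed, against 4.13% of all rows lower. L1cam was at -0.21 (limma adjusted p = 0.076) and Nrcam at -0.13 (limma adjusted p = 0.15). L1cam passed as lower with array weights, after cyclic loess and with the replicate number as a block. Nfasc, whose products include the glial partner of the Cntn1 and Cntnap1 complex, was near 0, as given above. Which of the neurofascins its row reads was not examined.

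Of 7 cytoskeletal and scaffold genes, 2 fell, against 4.13% of all rows. Dlg2, encoding PSD-93, a scaffold that binds Kv1 channels, was at 0.34, 0.30 and 0.21 in the wild types and at -0.34, -0.31 and -0.21 in the mutants. It fell by 0.57 ± 0.05 (SE, limma adjusted p = 0.0041), about the size of the difference of Cntn6. Epb41l3, encoding protein 4.1B, which ties Cntnap tails to the axonal cytoskeleton, fell by 0.27 ± 0.04 (SE, limma adjusted p = 0.015). Its call was lost when replicate 2 of either genotype or mutant replicate 3 was left out. Dlg4, Cask, Ank3 and Sptbn4 had values of -0.31, -0.17, -0.15 and -0.14 that did not pass (limma adjusted p = 0.070, 0.062, 0.12 and 0.20). The value of Dlg4 was 0.0033 after cyclic loess, but it passed as lower with array weights and without mutant replicate 1. Cask passed as lower in those 2 fits and after cyclic loess, and Ank3 with array weights.

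Of 5 sodium channel subunit genes, 3 fell, against 4.13% of all rows and 16.5% of the genes over 100 kb. The 3 that fell all span over 100 kb. Scn2a, an early axonal sodium channel, fell by 0.40 ± 0.05 (SE, limma adjusted p = 0.0091) on the row used, and 13 of its 14 rows passed as lower. Scn1a fell by 0.36 ± 0.05 (SE, limma adjusted p = 0.010) and Scn8a by 0.30 ± 0.07 (SE, limma adjusted p = 0.043). Scn3a, a channel of the embryonic brain, was at -0.11 (limma adjusted p = 0.45) and the beta subunit gene Scn2b at -0.18 (limma adjusted p = 0.083). Scn1a lost its call without wild-type replicate 2, Scn2a without mutant replicate 2, and Scn8a with any array but wild-type replicate 3 left out.

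Of 8 genes of Kv1 channels and the LGI and ADAM proteins that bind them, 4 fell, against 4.13% of all rows. Kcna4, a Kv1 channel gene, was at 0.26, 0.28 and 0.15 in the wild types and at -0.15, -0.25 and -0.26 in the mutants, a fall of 0.45 ± 0.05 (SE, limma adjusted p = 0.0069). Kcna1 and Kcna2, the Kv1 genes of the mature juxtaparanode, were at -0.03 and -0.20 (limma adjusted p = 0.80 and 0.095). Lgi1, a secreted ligand, fell by 0.45 ± 0.07, and its receptors Adam23 and Adam22 fell by 0.39 ± 0.07 and 0.24 ± 0.04 (SEs; limma adjusted p = 0.015, 0.024 and 0.022). Kcnab2 was at -0.28 (limma adjusted p = 0.13) and Lgi3 at -0.22 (limma adjusted p = 0.27). Kcnab2 passed as lower with array weights, with the replicate number as a block and without mutant replicate 1. Each of the 4 genes that fell lost its call without mutant replicate 2, and Lgi1, Adam22 and Adam23 also without wild-type replicate 2. Adam22 further lost it without wild-type replicate 1 or 3, and Adam23 without mutant replicate 3.

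**Figure D4:**
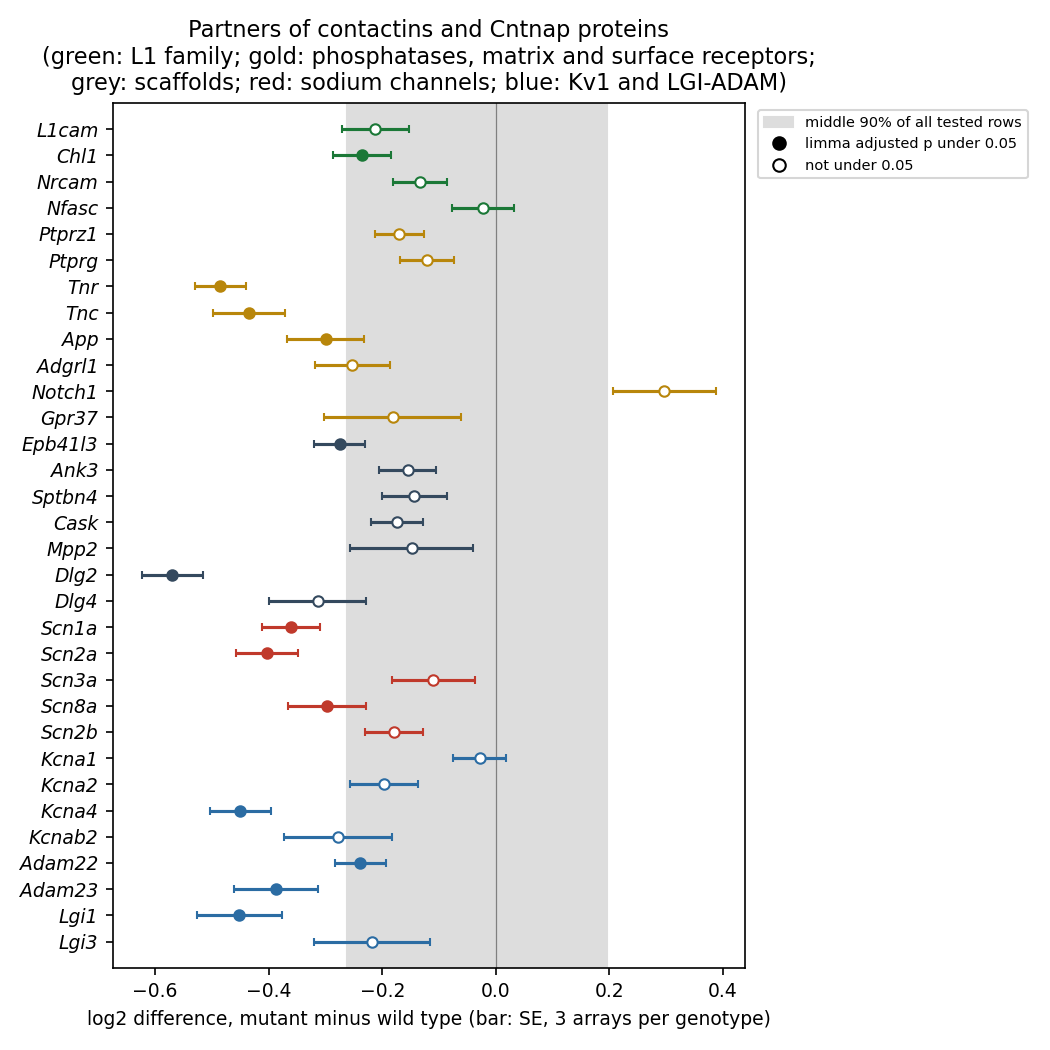
Log2 difference, mutant minus wild type (horizontal axis), with its SE, of 32 partner genes coloured by role; filled points had a limma adjusted p under 0.05 and the grey band runs from -0.26 to 0.20. The 13 filled points are all left of 0, from Dlg2 at -0.57 to Chl1 at -0.24, and Notch1 is the only point right of 0.

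Marker genes of the cell types that the brains could hold moved in the same arrays, and their part in the contactin and partner values was not tested. Beside every list count below stand 4.13% of all tested rows lower and 2.34% higher, and nothing is read from the counts. Of 15 pan-neuronal genes, 6 were lower, 0 higher and 9 did not pass (median -0.26). Their mean centred value was 0.05 to 0.15 in the wild types and -0.33 to -0.04 in the mutants. Thy1 was the largest, at 1.88-fold lower (limma adjusted p = 0.013). Syt1, Mapt and Gap43 were lower too (limma adjusted p = 0.018, 0.022 and 0.03). Of the 15 genes, 14 had negative differences and 1 a positive one. Tubb3, Dcx and Map2, named after the values were seen, were among those that did not pass, and their values are not given here. All 11 measured cycling-cell genes were higher (median 0.59), with means of -0.46 to -0.20 in the wild types and 0.21 to 0.38 in the mutants. Leaving out replicate 2 of the wild type or of the mutant left 0 pan-neuronal genes called by limma. Calls over all rows dropped too, to 0.927% and 0.483% lower. At an unadjusted p under 0.05 these fits had 8 and 7 pan-neuronal genes lower, and no unadjusted count over all rows was made for them. The number of pan-neuronal genes called was 1 with wild-type replicate 1 left out, 2 with mutant replicate 3 left out and 10 with mutant replicate 1 left out. Of all rows, 1.95%, 1.7% and 7.0% were lower in these fits. The cycling-cell count was 2 without mutant replicate 2 and 10 or 11 with any other array left out. Rows called higher over the whole array numbered 548 with all arrays and 32 without mutant replicate 2. Among 12 GABAergic neuron genes 4 were lower (median -0.15, means 0.04 to 0.11 against -0.10 to -0.06). Among 8 glutamatergic cortical neuron genes 1 was lower and 1 higher (median 0.06, means -0.07 to 0.05 against -0.08 to 0.05).

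Of 8 astrocyte genes 3 were lower (median -0.23, means 0.02 to 0.22 in the wild types and -0.21 to -0.02 in the mutants), and of 10 oligodendrocyte lineage genes 2, Pdgfra and Olig1 (median -0.16, means 0.01 to 0.17 against -0.27 to -0.0092). The myelin genes Mbp, Mag, Mog and Cnp were not among those called. Of 9 radial glia genes 2, Nes and Vim, were higher (median 0.11, means -0.12 to -0.03 against -0.04 to 0.10). Of 6 red-cell genes 2, Hbb-y and Hba-x, were higher (median 0.12, means -0.54 to -0.43 against 0.43 to 0.44), of 7 endothelial and pericyte genes Cldn5 was lower (median -0.06, means 0.02 to 0.06 against -0.08 to -0.0072), and of 6 meningeal and fibroblast genes Ogn was lower (median -0.18, means 0.02 to 0.18 against -0.20 to 0.01). The GABAergic count was 2 with replicate 2 of either genotype left out, and the astrocyte, oligodendrocyte lineage, radial glia and endothelial counts were then 0. Calls over all rows dropped in the same fits, as given above. The astrocyte and endothelial counts were also 0 without wild-type replicate 1 or without mutant replicate 3. The radial glia count was 1 without any of the other 4 arrays. The oligodendrocyte lineage count was 1 on dropping mutant replicate 3 or either of wild-type replicates 1 and 3, and was 3 on dropping mutant replicate 1. The meningeal count was 0 when the second mutant array was dropped, and so was the glutamatergic count of genes lower. Only on dropping the first mutant array did the glutamatergic list have 1 gene called higher, and it had 0 on dropping each of the other 5. The red-cell count stayed at 2 with any array left out. Because the values are centred, which of these markers were near background cannot be read.

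The 5 genes outside the list whose 6 array values lay closest to those of Cntn1 were Caln1, Grm5, Brinp3, Slc4a4 and Aloxe3. Closeness was the Euclidean distance between centred log2 values over the 6 arrays, which was 0.143, 0.145, 0.148, 0.149 and 0.158 for them. The median over 19928 genes was 1.07. Caln1, for example, was at 0.51, 0.38 and 0.23 in the wild types and at -0.23, -0.59 and -0.67 in the mutants. Within the list the closest pair was Cntn5 and Cntnap5b, at 0.184, next came Cntnap5a and Cntnap5b, at 0.188, and the farthest was Cntn1 and Cntn2, at 1.25. The measure takes in the genotype difference itself, so genes with a like difference are close by construction.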

How the data were processed

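Whole embryonic brains were read on 6 Affymetrix arrays, 3 per genotype, grouped by sample title. The deposited values are log2 values; per the series text the authors normalized the arrays by RMA (Robust Multi-Array Average), in Affymetrix Expression Console (version not given), per the submitters' processing notes. Row medians over the 6 arrays were 0 to within 5e-07, a centring that no source states. The build behind the array rows is not given here. Centred values allow no filter on low signal.

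Rows were named by the platform annotation: 21789 named 1 gene, 1621 several and 5446 none. Symbols, gene order and span class came from RefSeq (GRCm38.p6), where 21698 of the single-gene rows were found. Genotypes were compared with limma 3.58.1 (lmFit, eBayes, two-sided) in R 4.3.3, adjusted by Benjamini-Hochberg over the 23410 rows naming a gene. Steps were tested on simulated data. For a partner or marker with several rows, the row with most accessions was used. Named were the listed genes, other Cntnap genes, called partners and up to 4 others per partner list, up to 4 called markers per list and the 5 genes nearest Cntn1. Flanking genes on chromosomes 6 and 1, the markers named as not called, and the promoter windows were added after the values were seen. Members and lists were chosen with earlier results of these data known. The replicates are labelled biological, and their number limits precision. Alternatives were a replicate block, each array left out, all rows, equal medians, cyclic loess, array weights, a robust prior, a plain t-type test and treat. Figures used matplotlib 3.10.9.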

Additional observations from a re-analysis of the deposited data

How the results depend on the processing

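Of 616 values of single genes under 14 alternatives, 497 kept their sign and side of the threshold, 84 lost a call, 32 gained one and 3 turned sign, all 3 without a call before or after: Nfasc to 0.0092 (array weights) and, with single arrays left out, -0.060 to 0.030 (positive without mutant replicate 1), and Dlg4 to 0.0033 (cyclic loess). Cntn1 ranged from -0.92 to -0.75 and Cntn6 from -0.59 to -0.52 over all alternatives, and both passed with any array left out. Partner counts in this section are over 35 genes, the partners with the 3 unlisted Cntnap genes. With each array left out in turn, the listed genes called lower numbered 2 to 7, and 1 to 2 at 1.5-fold; partner genes called, 3 to 19; rows at any fold, 145 to 2501; and rows at 1.5-fold, 60 to 282, against 6, 1, 14, 1515 and 150 with all arrays.

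The plain test without shared variance called 0 rows at any fold or at 1.5-fold, 0 listed genes and 0 partners (4078 rows, 7 listed genes and 24 partners at an unadjusted p under 0.05, against 5115, 8 and 29 in limma). Limma's treat against 1.2-fold called 17 rows by either rule, 0 listed genes, 0 of them at 1.5-fold, and 0 partners (595 rows, 6 listed genes and 7 partners unadjusted). Array weights called 5425 rows, 2781 lower and 2644 higher (51.3% lower, against 63.8% in the main analysis), 27 partners (26 lower and 1, Notch1, higher, adjusted p = 0.046) and 8 listed genes, the 6 with Cntn3 and Cntnap4. The replicate block called 2400 rows (1496 lower, 904 higher), 20 partners (19 lower and 1, Notch1, higher, adjusted p = 0.039) and the same 6 listed genes. The adjusted p of Notch1 ran from 0.039 to 1.0 over the alternatives. Without mutant replicate 1, Cntn3 was called beside the 6. Same-numbered arrays deviated together with correlations of 0.209, 0.0472 and 0.198. For replicates 1 and 3 these were the highest values of their arrays, while mutant replicate 2 correlated slightly better with wild-type replicate 3 (0.0575). These values do not settle whether the numbers pair the brains. The main fit did not pair them, and the replicate block is given as an alternative.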
